A study of Homo sapiens with 6 samples.

Results

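The genes described here are 9 surface antigens of plasma cells and B cells that are used to recognise or treat multiple myeloma: TNFRSF17 (BCMA), TNFRSF13B (TACI), SDC1 (CD138), CD38, SLAMF7, GPRC5D, FCRL5, CD27 and CD79A. They were taken by name from the 57905 gene identifiers of the count files, and all 9 were found. The RNA came from NCI-H929 (H929), an established human multiple myeloma cell line, and the libraries are described by the study as biological replicates of that single line. In the IRE1-treated samples (n = 3), purified total RNA (5 µg) was incubated with 2 µg of a recombinant cytosolic portion of human IRE1 (amino acids 467 to 977). In the controls (n = 3), 5 µg was incubated with no IRE1. Incubation was for 1 h at 37 °C and was ended by 5 min at 95 °C in both groups. Poly(A) RNA was then purified and sequenced. The enzyme therefore acted on naked RNA in a tube and not in living cells, and the comparison holds no response of a cell. It asks which mRNAs have fewer sequenced fragments after contact with the enzyme.

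IRE1 is a sensor in the membrane of the endoplasmic reticulum, with a kinase and an endoribonuclease domain on its cytosolic side. It cuts XBP1 mRNA at a pair of hairpin loops, which starts the unconventional splicing that gives the transcription factor XBP1s, and it also cuts other mRNAs, a process called regulated IRE1-dependent decay (RIDD). Plasma cells secrete large amounts of immunoglobulin and depend on XBP1s. All 9 antigens are made at the endoplasmic reticulum as membrane proteins. Antibodies, engineered T cells or other agents against BCMA, CD38, SLAMF7, GPRC5D and FCRL5 are used or have been tested in myeloma, CD138 is the standard marker for isolating plasma cells, and CD27 and CD79A mark stages of B cell development.

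Known IRE1 sites hold the consensus CNGCAG, most often CTGCAG, in the loop of a hairpin. The sites below are shown because the G at base number 3 of the consensus lies in a predicted loop. There is 1 for each antigen that has such a site. For SDC1, CD38 and FCRL5 it is the only CTGCAG in a loop, and for GPRC5D the only loop site. SDC1 and CD38 have further loop sites with other CNGCAG letters, which are not printed. The sites of XBP1 and of BLOC1S1, a known RIDD substrate, are given as reference. Each line holds 30 bases, 5′ to 3′ on the transcript, from the GRCh37 genome with GENCODE exons, and the capitals mark the consensus.
XBP1, upstream site: ggtctgctgagtCCGCAGcactcagactac
XBP1, downstream site: ctacgtgcacctCTGCAGcaggtgcaggcc
BLOC1S1: tacaaagggcagCTGCAGtctgccccttcc
SDC1: cctcccacccggCTGCAGaggccagaggcc
CD38: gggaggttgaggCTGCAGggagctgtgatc
FCRL5: ggtcggccaactCTGCAGgaggagtggcca
GPRC5D: actcccattcagCCGCAGactgttgatccc

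The capitals of the SDC1 site lie at chr2:20400866-20400871 on the minus strand, in the 3′ UTR in exon 5 of 5. The CD38 site lies at chr4:15851859-15851864 on the plus strand, in the 3′ UTR in exon 8 of 8. The FCRL5 site lies at chr1:157508990-157508995 on the minus strand, in the coding sequence of exon 7 of 17. The GPRC5D site lies at chr12:13095195-13095200 on the minus strand, in the coding sequence of exon 3 of 4, and its 30 bases run across a splice junction of the mature mRNA. These 4 are predicted by RNAfold to have that G in loops of 5, 6, 6 and 8 bases. The loops are closed by 4, 4, 4 and 5 base pairs respectively. In SDC1, CD38 and FCRL5 the C and T that open CTGCAG are paired, and in GPRC5D the first C is paired. In the same predictions the whole consensus is unpaired in the downstream XBP1 site and in BLOC1S1. For the upstream XBP1 site the closing CAG is predicted to be paired. Each fold covers only the 30 bases and was not compared with structures known for these sites. The predicted loops of the XBP1 sites have 6 and 7 bases on stems of 4 and 7 pairs, and that of BLOC1S1 has 7 bases on 6 pairs. Loops were only counted within the size range used for the search, so their sizes are no comparison.

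In the canonical transcripts of the 9 antigens, CNGCAG occurred 50 times and CTGCAG, which is counted among these, 26 times. Only the transcript strand was searched. Of the 50, 8 lay in a predicted loop, and these belonged to SDC1 (4), CD38 (2), FCRL5 (1) and GPRC5D (1). CTGCAG had this G in a loop in SDC1, CD38 and FCRL5, once in each. Sites outside loops were present in TNFRSF13B, CD27, SLAMF7 and CD79A. TNFRSF17 held no CNGCAG anywhere in its 891 bases. These letters are common, since 96.8% of 12183 tested protein-coding genes held CNGCAG and 68.6% held it in a predicted loop by the same rule. Among the 1620 genes with a canonical transcript under 1500 bases, 85.7% held CNGCAG and 38.3% held it in a loop. The match is a description of letters and predicted folds and shows no cut.

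The depth on genes was 19615715 to 25678499 counts per library, and the antigens together took 0.231 to 0.245% of it. The identity of the cells was checked with marker lists. The plasma cell list includes the antigens SDC1 and TNFRSF17 (1053 and 1605 TPM as control means), so that list is not independent of the antigens. All 10 plasma cell markers had at least 1 TPM (a length-corrected level, counts per base of exon, scaled to the same sum in every library) in the controls, with a summed level of 16523.5 to 17233.3 TPM in controls and 15930.6 to 16282.3 TPM in IRE1-treated samples. Only 2 of 10 B cell markers reached 1 TPM, the sum was 7.90 to 8.78 TPM in controls and 6.21 to 6.68 TPM in IRE1-treated samples, and CD22 was listed at 0. Of the T and NK cell markers 3 of 8 reached 1 TPM (60.5 to 64.8 and 60.2 to 69.6 TPM in sum), of the myeloid markers 1 of 8 (8.68 to 10.7 and 8.52 to 10.8 TPM) and of the erythroid and stromal markers 0 of 7 (0.194 to 0.325 and 0.221 to 0.766 TPM). CD5, TRAC, MPO, COL1A2 and LUM had no count or no matched identifier. The part of these markers in the results was not tested.

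At baseline the antigens spanned a wide range and fell into high, intermediate and nearly absent levels. BCMA mRNA was the most abundant: TNFRSF17, the receptor for APRIL and BAFF that keeps plasma cells alive, had 1648, 1601 and 1567 TPM in the 3 controls. SDC1, the heparan sulfate proteoglycan that binds growth factors on plasma cells, followed with 1053 ± 11.3 TPM (SD, n = 3). SLAMF7, a self-binding receptor of the SLAM family, had 449 ± 7.34 TPM, and GPRC5D, an orphan receptor of the G protein-coupled type found on plasma cells and in hair follicles, had 182 ± 4.43 TPM. Among 12225 tested protein-coding genes these 4 ranked 79, 111, 272 and 679, at percentiles of 99.4, 99.1, 97.8 and 94.5.

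**Figure D1:**
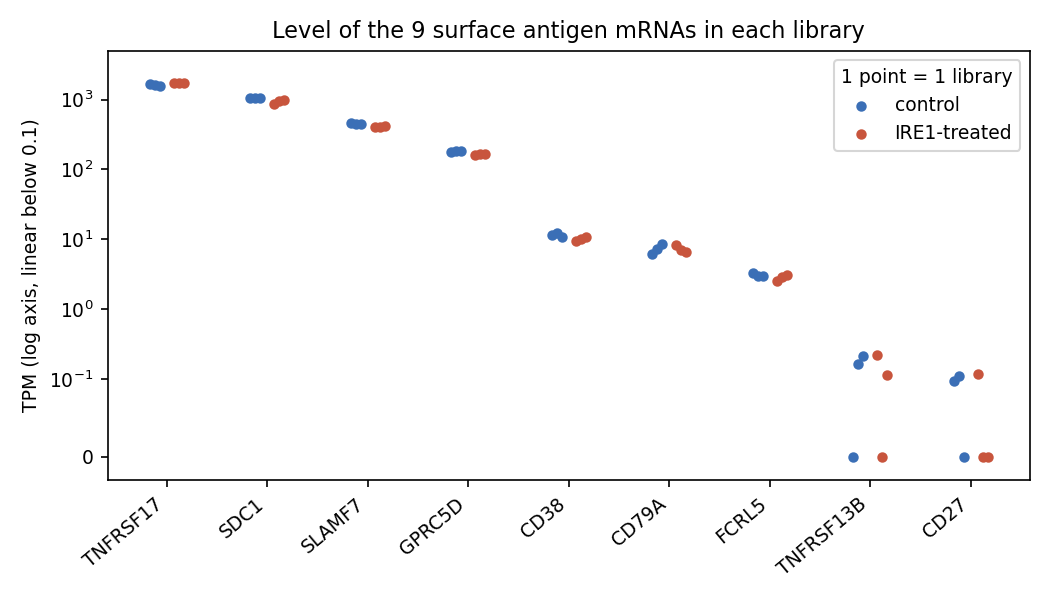
Level of each surface antigen mRNA in every library. The vertical axis is TPM on a log axis that is linear below 0.1, points are single libraries coloured by group, and TNFRSF17, SDC1, SLAMF7 and GPRC5D lie well above the other 5 genes, with 182 to 1605 TPM as control means.

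The remaining antigens were below the median level of the tested protein-coding genes, 13.6 TPM. CD38, an ectoenzyme that breaks down NAD, had 11.7 ± 0.796 TPM in controls, 15.6 times less than GPRC5D. CD79A, the signalling chain of the B cell receptor, had 7.25 ± 1.17 TPM, and FCRL5, an immunoglobulin-binding receptor of the Fc receptor-like family, had 3.10 ± 0.167 TPM. The FCRL5 level depends on the length used, and was 5.19 TPM with the longest transcript in place of all exons. In bulk RNA, few cells with an mRNA and little mRNA in each cell cannot be told apart.

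TNFRSF13B and CD27 were close to absent. TACI, encoded by TNFRSF13B, binds the same ligands as BCMA, and its gene had 0, 4 and 5 counts in the controls and 5, 0 and 3 in the IRE1-treated samples. CD27, the receptor for CD70 and a marker of memory B cells and normal plasma cells, had 1, 1 and 0 counts in the controls and 1, 0 and 0 in the IRE1-treated samples. Neither passed the filter on low counts, so no change was tested for them. Exons of TNFRSF13B overlap TBC1D27P, and those of CD27 overlap CD27-AS1 and TAPBPL, so even these few counts are uncertain. In the order of control levels, each antigen's lowest library lay above the highest library of the next one, except that TNFRSF13B and CD27 overlapped. At least 10 TPM was reached by 5 antigens (TNFRSF17, SDC1, SLAMF7, GPRC5D and CD38).

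Changes were read from normalized counts, that is, counts scaled for depth and composition, with edgeR's quasi-likelihood test and Benjamini-Hochberg adjustment over 14398 genes. Of the 9 antigens 7 were tested. TNFRSF17 was the only one past an adjusted p of 0.05, and it rose. In all, 10.3% of the genes tested were higher and 12.4% were lower (22.7% in either direction), so 1 of 7 higher and 0 of 7 lower does not set these antigens apart from other genes. The median log2 fold change was 0.02 over the 7 antigens and 0.0045 over all genes tested, and 4 of the antigens were above 0 and 3 below. With 3 samples against 3, an exact permutation test of a single gene cannot give a two-sided p below 0.1.

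TNFRSF17 (ENSG00000048462, chr16:12059067-12061925, plus strand) had 11000, 10674 and 10639 normalized counts in the controls and 13213, 12741 and 12448 in the IRE1-treated samples. Every IRE1-treated sample lay above every control, a separation found in this direction in 19.1% of the genes tested, in the other direction in 20% and in either in 39.1%. The means were 10771 ± 199 and 12801 ± 386 (SD, n = 3 each), 119% of control. The log2 fold change was 0.25 (SE 0.0449, 95% interval 0.15 to 0.34, adjusted p = 0.001336 by edgeR's quasi-likelihood test), and the exact two-sided permutation p was 0.1, the smallest possible. The rise was present with each library left out in turn (0.23 to 0.27).

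**Figure D2:**
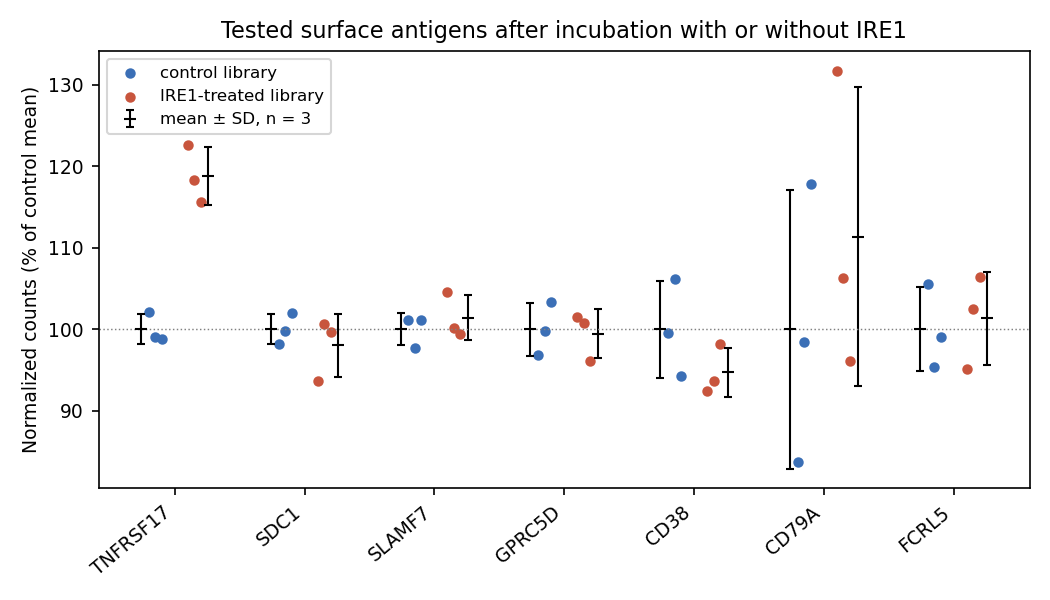
Normalized counts of each tested surface antigen relative to its control mean. The vertical axis is the percent of the control mean, points are single libraries, black marks are group means with SD (n = 3), and TNFRSF17 is the one gene in which the groups do not overlap, with an IRE1-treated mean of 119% of control.

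The size of this rise was that of short transcripts in general in these libraries. The longest annotated TNFRSF17 transcript has 891 bases, and among the 332 tested protein-coding genes of 207 to 999 bases the median log2 fold change was 0.24, with 49.7% higher and 0% lower. In the 3056 genes with the longest transcripts (5756 bases or more) the median was -0.20, with 2.52% higher and 36.8% lower. After each library was corrected for a trend on transcript length and GC content, the log2 fold change of TNFRSF17 was 0.030 (adjusted p = 0.6583 by edgeR's quasi-likelihood test) and no antigen was higher.

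**Figure D3:**
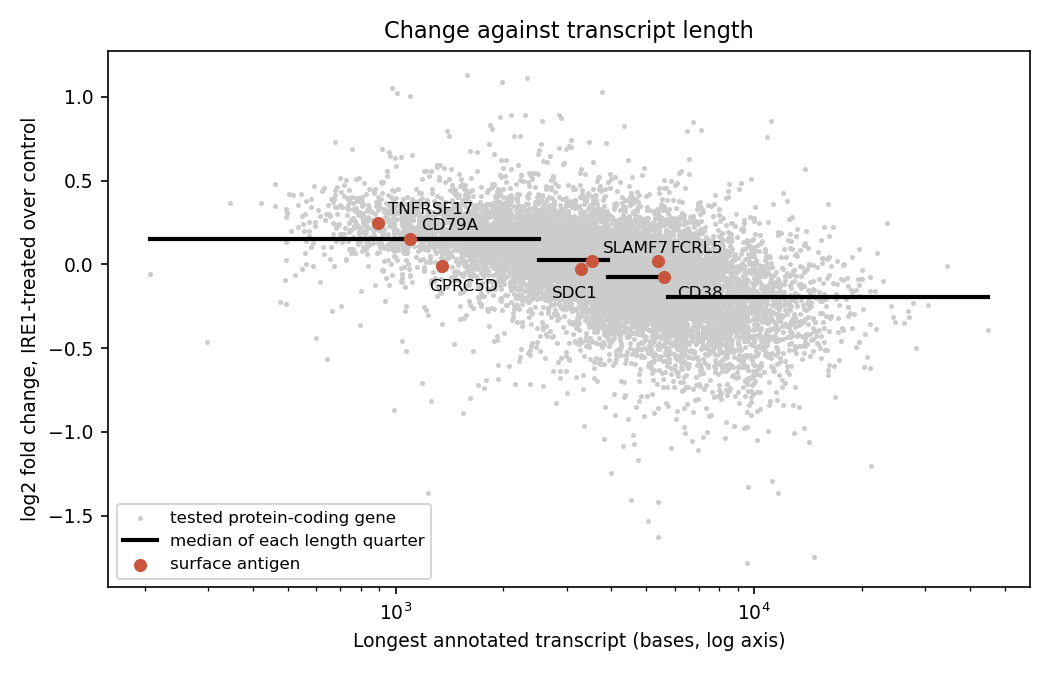
Change against transcript length. The horizontal axis is the longest annotated transcript in bases (log axis), the vertical axis is the log2 fold change of IRE1-treated over control, grey points are tested protein-coding genes, black lines are the medians of 4 bins of about equal gene number (0.15, 0.029, -0.073 and -0.20 from short to long) and red points are the antigens. TNFRSF17 (0.25) lies above the median of the shortest bin, CD79A (0.15) near it and GPRC5D (-0.0076) below it.

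GPRC5D (ENSG00000111291, chr12:13093509-13105104, minus strand) did not pass the first test and was lower after the same correction. Its normalized counts were 1570, 1617 and 1676 in the controls and 1646, 1635 and 1558 in the IRE1-treated samples, and the groups overlapped fully. The means were 1621 ± 53.1 and 1613 ± 48.2, and the log2 fold change was -0.0076 (SE 0.0517, 95% interval -0.12 to 0.10, adjusted p = 0.9366 by edgeR's quasi-likelihood test). With the trend on length and GC content removed it was -0.18 (SE 0.0446, 95% interval -0.28 to -0.088, adjusted p = 0.01316 by the same test), so that this gene of 1347 bases was lower than other genes of its length and composition. It was the only antigen called in that fit, in which 820 of 14398 genes tested were lower and 1148 were higher. Its transcript holds the CCGCAG site shown above, and whether the site takes part in this difference was not tested.

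The other abundant antigens did not move past the test. SDC1 (ENSG00000115884, chr2:20400558-20425194, minus strand) had 24714, 25101 and 25651 normalized counts in the controls and 23548, 25328 and 25081 in the IRE1-treated samples. These overlapped, with means of 25155 ± 471 and 24652 ± 964 and a log2 fold change of -0.029 (95% interval -0.13 to 0.068, adjusted p = 0.6999 by edgeR's quasi-likelihood test). SLAMF7 (ENSG00000026751, chr1:160708847-160724611, plus strand) had 14512, 14032 and 14519 normalized counts in the controls and 15013, 14382 and 14278 in the IRE1-treated samples. Its groups overlapped as well, and the log2 fold change was 0.020 (95% interval -0.074 to 0.11, adjusted p = 0.7933 by the same edgeR test). The 95% interval of each lay within 0.13 of 0 on the log2 scale. SDC1, whose transcript holds the most predicted loop sites among the antigens, had no detected loss. Of the reference substrates, BLOC1S1 was lower in the same fit (log2 fold change -1.37, adjusted p = 1.254e-06 by edgeR). XBP1 was not called (-0.093, adjusted p = 0.1428 by edgeR), so a test of whole-gene counts can miss a known substrate. Whether SDC1 mRNA was cut was not tested.

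**Figure D4:**
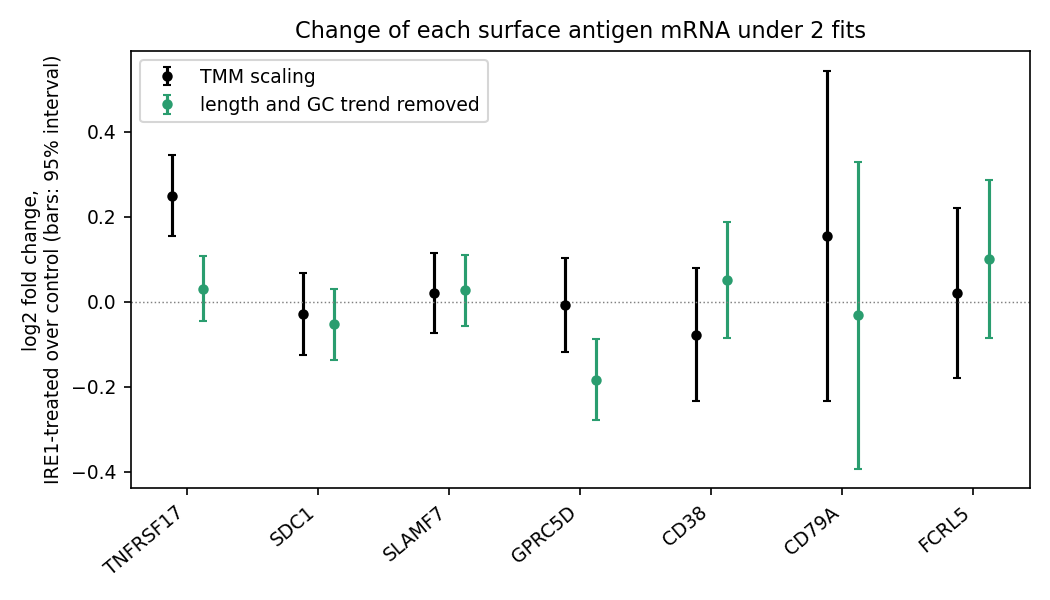
log2 fold change of each tested surface antigen with its 95% interval, before and after a trend on transcript length and GC content was removed. The vertical axis is the log2 fold change of IRE1-treated over control, and the genes stand along the horizontal axis. The interval of TNFRSF17 lies above 0 only before the removal (0.25 against 0.030) and that of GPRC5D below 0 only after it (-0.0076 against -0.18).

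CD38 (ENSG00000004468, chr4:15779898-15854855, plus strand) had 526, 561 and 498 normalized counts in the controls and 488, 495 and 519 in the IRE1-treated samples. Its IRE1-treated mean was 94.7% of control, the groups overlapped in 1 control and 1 IRE1-treated sample, and the log2 fold change was -0.077 (95% interval -0.23 to 0.078, adjusted p = 0.4946 by edgeR's quasi-likelihood test). Its sign turned with the length and GC trend removed (0.051). CD79A (ENSG00000105369, chr19:42381349-42385439, plus strand) had 54.01, 63.52 and 76.02 normalized counts in the controls and 85.01, 68.55 and 62.03 in the IRE1-treated samples. At so few counts the 95% interval of its log2 fold change of 0.15 ran from -0.23 to 0.54 (adjusted p = 0.5964 by the same edgeR test). FCRL5 (ENSG00000143297, chr1:157483167-157522305, minus strand) had 268, 243 and 252 normalized counts in the controls and 242, 260 and 270 in the IRE1-treated samples, which overlapped, with a log2 fold change of 0.020 (95% interval -0.18 to 0.22, adjusted p = 0.9062 by edgeR). For these 3 genes a change within these intervals was not detectable at this depth.

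The genes whose log2 CPM over the 6 libraries was most like that of TNFRSF17 were CHMP4B, a subunit of the membrane-remodelling ESCRT-III complex, and the ribosomal protein genes RPS24 and RPL21, each with Pearson's r = 0.999. Of 14397 genes compared, 534 had r above 0.95. The 6 points are the same libraries for every gene and fall into the 2 groups compared, and RPS24 and RPL21 have many pseudogenes, so these values are a description.

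The partners and relatives of the antigens were taken from 9 lists of ligands, receptors, processing enzymes and family members, 86 genes beside the antigens. Of these, 65 were tested, 11 were lower (16.9%), 5 were higher (7.69%) and 49 were not past the test, against 12.4% lower and 10.3% higher among all genes tested. The median log2 fold change of the 65 was -0.026. Of the 11 lower genes 9 exceeded the median transcript length of the tested protein-coding genes, 3922 bases, as did 37 of all 65, and of the 5 higher genes 3 were shorter than it, as were 28 of the 65. With the length and GC trend removed, 5 companions were lower and 8 were higher, against 820 and 1148 of all 14398 genes tested.

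**Figure D5:**
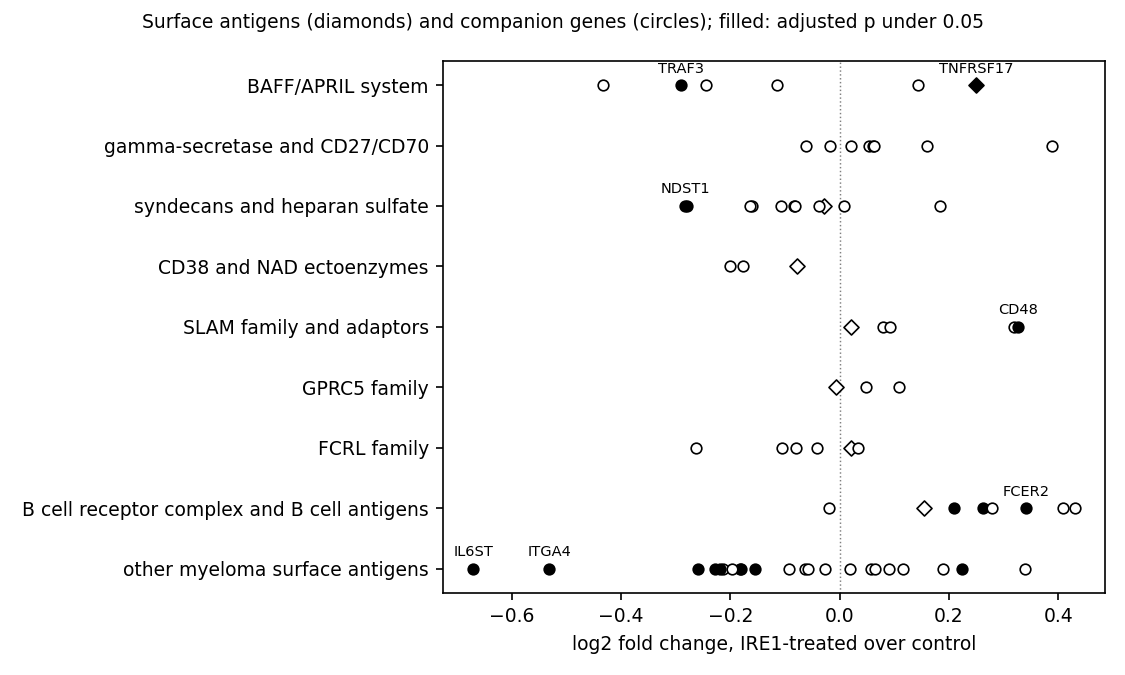
log2 fold changes of the tested surface antigens (diamonds) and companion genes (circles), by list. The horizontal axis is the log2 fold change of IRE1-treated over control, and filled symbols passed an adjusted p of 0.05: 11 companions lie to the left of 0 and 5 to the right, with IL6ST (-0.67) and ITGA4 (-0.53) farthest left.

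Around BCMA and TACI, 5 of 8 further genes of the BAFF and APRIL system were tested, and 1 was lower. TRAF3, which restrains noncanonical NF-kappaB signalling below these receptors, fell from 485 ± 28.1 to 396 ± 37.9 normalized counts (log2 fold change -0.29, adjusted p = 0.023 by edgeR's quasi-likelihood test). TRAF2, another adaptor of these receptors, was the most abundant of the list at 24.7 TPM, with a log2 fold change of 0.14 that did not pass. The transcript of TRAF3 has 9450 bases, and with the length and GC trend removed its log2 fold change was -0.072 (adjusted p = 0.5904 by the same edgeR test), so that no gene of this system was called. None of the 8 tested genes of gamma-secretase, the protease that sheds BCMA, and of the CD27 and CD70 pair passed the test.

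Around SDC1, 2 of 10 further tested genes of the syndecans and of heparan sulfate synthesis and shedding were lower and 0 were higher. NDST1, which sulfates heparan sulfate chains, fell from 1520 ± 53.1 to 1247 ± 115 normalized counts (log2 fold change -0.28, adjusted p = 0.005798 by edgeR's quasi-likelihood test). ADAM17, a sheddase of membrane proteins, had -0.28 as well (adjusted p = 0.02235 by the same edgeR test). Neither call held with the length and GC trend removed (-0.11, adjusted p = 0.2185, for NDST1 and -0.10, adjusted p = 0.4537, for ADAM17 by edgeR), where 0 genes of the list were lower and 1, EXT2, was higher. Both NDST1 and ADAM17 share exon positions with genes on the opposite strand. Neither of the 2 other tested NAD ectoenzymes listed with CD38 passed the test.

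In the SLAM family, 1 of 4 further tested genes was higher and 0 were lower. CD48, a small lipid-anchored relative of SLAMF7 and the ligand of CD244, had 735 ± 25.9 TPM in controls, more than SLAMF7 itself. It rose from 15819 ± 472 to 19834 ± 1827 normalized counts (log2 fold change 0.33, SE 0.0582, adjusted p = 0.001248 by edgeR's quasi-likelihood test), and unlike TNFRSF17 it was still past the threshold with the length and GC trend removed (0.21, adjusted p = 0.01251 by the same edgeR test). A gene on the opposite strand overlaps its exons. LY9 also was higher in that fit (0.17). EXT2 and LY9 are named after their values were seen. None of the relatives of GPRC5D or FCRL5 passed the test: the most abundant were GPRC5B at 0.993 TPM, far below GPRC5D, and FCRL2 at 25.3 ± 0.777 TPM, above FCRL5.

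Among the B cell genes listed with CD79A, 3 of 7 tested were higher and 0 were lower. These were FCER2, the low-affinity IgE receptor (0.34, adjusted p = 0.01848), CD79B, the partner of CD79A in the B cell receptor (0.26, adjusted p = 0.006593), and CD81, a tetraspanin (0.21, adjusted p = 0.008295, all on the log2 scale by edgeR's quasi-likelihood test). With the length and GC trend removed only CD81 was past the threshold (0.29, adjusted p = 0.00039 by edgeR), CD79B being at 0.091 (adjusted p = 0.3051) and FCER2 at 0.22 (adjusted p = 0.1108). With library size only, FCER2 (adjusted p = 0.05399 by edgeR) and CD81 (0.13, adjusted p = 0.08252) did not pass. CD79B was the most abundant of the list at 69.6 ± 3.34 TPM, against 7.25 ± 1.17 TPM for CD79A, so the chains of this heterodimer were unequal at the mRNA level.

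Of 22 other tested myeloma surface antigens, 8 were lower and 1 was higher, against 12.4% and 10.3% of all genes tested. With the length and GC trend removed, 5 were lower and 3 were higher, against 820 and 1148 of all 14398 genes tested. The largest changes were in IL6ST, the signal-transducing chain of the IL-6 receptor (-0.67, SE 0.107, adjusted p = 0.000617), ITGA4, an integrin of bone marrow adhesion (-0.53, SE 0.0713, adjusted p = 0.000193), and IL6R, the ligand-binding chain for IL-6 (-0.26, SE 0.0505, adjusted p = 0.002199, all on the log2 scale by edgeR's quasi-likelihood test). IL6ST fell from 871 ± 50.4 to 544 ± 116 normalized counts and ITGA4 from 5777 ± 196 to 3994 ± 518, and exons of both overlap a gene on the opposite strand. All 3 were still lower with the length and GC trend removed (-0.43, -0.35 and -0.16). Both chains of the IL-6 receptor were lower in either fit.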

How the data were processed

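The authors trimmed the reads (Cutadapt 1.12), aligned them to hg19 (STAR 2.5.3a) and counted read pairs per gene (HTSeq 0.6.1p1, per the labels), and deposited raw gene counts of each library, in which the strand and overlap settings are not given in the sources used here. CPM values of the more expressed genes, normalized by the authors, were used in an alternative only. Lines that name no gene held 21.4 to 23.2% of all counts and were left out.

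Of 57905 identifiers, 55538 matched the gene annotation (GENCODE on GRCh37). The counts of all 6 libraries entered 1 edgeR 4.0.16 quasi-likelihood fit (R 4.3.3) with TMM scaling and no covariates, after low counts were filtered by its default rule, which left 14398 of the 24945 genes detected. P-values were adjusted by Benjamini-Hochberg and called at 0.05. The fit was tested on simulated counts. Normalized counts are at the scale of the mean library. TPM used the union of exons, is not TMM-scaled, and was used for levels only. Consensus sites were folded with ViennaRNA 2.7.2 with 12 bases on either side (no lone pairs), and a site counted as in a loop where its G at base number 3 was unpaired in a loop of 5 to 11 bases on a stem with 3 or more pairs. A window of 15 bases was added after seeing the data.

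No library was a copy of another (lowest chi-square per gene 2.21). Each sample had its own lane, so lane and sample cannot be told apart. P-values measure the spread between these samples of 1 cell line. The members and lists were chosen with earlier results of these data known. Named are all 9 antigens, in each list the up to 3 largest changes past the threshold, in 5 lists also the most abundant gene, and the 3 genes most like the most abundant antigen. The alternatives were DESeq2 1.42.0, other scalings and filters, limma 3.58.1 on the deposited CPM (pseudocount 1), each library left out, a replicate block, and removal of a loess trend on length and GC content (span 0.5).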

Additional observations from a re-analysis of the deposited data

How the results depend on the processing

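Of 105 fold changes of the antigens under alternatives, 90 kept their direction and side of the threshold, 2 lost the call, 2 gained it and 11 turned sign. TNFRSF17 kept its call in 13 of 15 alternatives (adjusted p by edgeR, DESeq2 or limma 2.573e-06 to 0.7379) and lost it in the 2 with the length and GC trend removed. With that trend removed, 1 antigen was lower and 0 were higher, 5 companions were lower and 8 higher, CD38 was at 0.051 and CD79A at -0.031. With the trend removed and the replicate block, 1 antigen was lower and 0 were higher, 5 companions were lower, CD38 was at 0.053 and CD79A at -0.031. With library size only, SLAMF7 was at -0.056 and FCRL5 at -0.054, and 16 companions were lower and 2 higher. That scaling moved the median of all genes to -0.071, against 0.0045. With each library left out in turn, SDC1 ranged from -0.049 to 0.0054, GPRC5D from -0.030 to 0.023 and FCRL5 from -0.013 to 0.064, and 5 to 15 companions were lower and 2 to 7 higher. SDC1 turned sign without IRE1-treated 1, GPRC5D without control 3 (0.017) or IRE1-treated 3 (0.023), and FCRL5 without control 2 (-0.013) or IRE1-treated 3 (-0.012). Without control 1, 5 companions were lower and 2 higher, and without control 2, 5 were lower. Without IRE1-treated 2, 6 were lower. The causes of these differences were not tested, and removing the trend on length and GC content does not test one.

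Samples with the same replicate number showed no shared deviation (correlations of deviations -0.036, -0.0050 and -0.11). These values cannot show whether such samples came from the same RNA preparation. With the replicate block, 0 antigens were lower and 1 was higher, and 9 companions were lower and 5 higher. Over all genes, 1496 were lower and 1117 higher with the replicate block, 2596 and 683 with library size only, and 820 and 1148 with the trend removed, against 1781 and 1489.

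Gene counts do not show where in a transcript fragments were lost, and 3 libraries a group limit the antigens with few counts. TNFRSF13B and CD27, with the fewest counts, were not followed through the alternatives.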

Other observations

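The most abundant companion mRNA was that of ITGB7, the beta chain of a homing integrin, with 7438 ± 38.4 TPM in the controls (SD, n = 3), above TNFRSF17 (1605 ± 40.6 TPM), and its log2 fold change was 0.090 (adjusted p = 0.1258 by edgeR's quasi-likelihood test). Its partner chain ITGA4 had 82.0 ± 3.55 TPM. CD44, a hyaluronan receptor, had 547 ± 9.80 TPM, and CD28, a costimulatory receptor, had 118 ± 3.72 TPM. These genes were picked after their values were seen.

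CD3E, a chain of the T cell receptor complex, was counted in every library of this plasma cell line, with 897, 940 and 914 normalized counts in the controls and 1177, 946 and 967 in the IRE1-treated samples, while CD3D, CD3G and CD5 were at or near 0.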
